A study of Mus musculus with 6 samples.

Results

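The genes described here encode the PSD95 family of membrane-associated guanylate kinases (MAGUKs) and the SAPAP family that binds them. They were taken by symbol from the deposited count tables. They are *Dlg1* (SAP97), *Dlg2* (PSD93), *Dlg3* (SAP102) and *Dlg4* (PSD95), and *Dlgap1*, *Dlgap2*, *Dlgap3* and *Dlgap4* (SAPAP1 to SAPAP4), 8 of the 55357 genes in the tables. Poly(A) RNA was sequenced in 6 libraries from cultured mouse neurons of cortex and hippocampus, prepared from wild-type C57BL/6N embryos at E18. In 3 of them (shPla2g4e) a lentivirus carried an shRNA against *Pla2g4e*, the gene of a calcium-dependent N-acyltransferase, and in the other 3 (shCtrl) it carried a control or scrambled shRNA. All cultures were transduced at DIV4 and collected at DIV14, and all were genetically wild-type. The question was how lowering *Pla2g4e* during neuronal maturation changes the transcriptome. The anti-*Pla2g4e* lentivirus carried 1 shRNA sequence, sh2, so that effects of losing *Pla2g4e* and other effects of this sequence cannot be told apart. The labels do not say that the replicates came from separate cultures or animals, so that p-values measure the spread between these libraries, which may be technical.

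At excitatory synapses, the PSD95 family forms the scaffold beneath the postsynaptic membrane. Its PDZ domains hold the tails of NMDA receptors, of the auxiliary subunits of AMPA receptors and of adhesion molecules, and its guanylate kinase domain, which has no kinase activity, binds the SAPAPs. SAPAPs in turn bind the Shank proteins, which connect to Homer and to the actin cytoskeleton, so that the families form successive layers of the postsynaptic density. In the forebrain, *Dlg3* is known as the MAGUK of young neurons, whereas *Dlg4* and *Dlg2* become more abundant as synapses mature.

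Between 17054717 and 23570180 reads were counted per library, and values are given as CPM, the reads of a gene relative to all reads of its library, scaled by TMM, a normalization that sets libraries to a common level over most genes. *Pla2g4e* stood at 38.0, 35.1 and 35.4 CPM in shCtrl and at 21.8, 14.1 and 18.7 CPM in shPla2g4e, so that all 3 knockdown libraries lay below all controls. Its log2 fold change was −0.99 (standard error 0.13, edgeR adjusted p = 1.24e-04). Of the 21876 genes tested, 1419 (6.49%) passed an adjusted p of 0.01 in edgeR's quasi-likelihood test, 876 lower (4.00%) and 543 higher (2.48%) in shPla2g4e. With a replicate block, which compares libraries of the same number, 3395 genes passed (1973 lower and 1422 higher). The lower calls made up 61.7% of all calls with TMM and 43.3% when libraries were scaled by size alone, and over all genes the median log2 fold change was 0.029 and 0.10, respectively. The cultures had the markers of neurons, with a summed level of 10 pan-neuronal genes of 5349 to 5714 CPM in shCtrl, and those of astrocytes (8 genes, 2826 to 3630 CPM), whereas 6 of 7 microglial markers passed the filter and summed to no more than 9.50 CPM.

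The sequence that the knockdown used is shown first, since a match to its seed in a member bears on how that gene is read. The sense strand of the sh2 target and the guide strand complementary to it are printed 5′ to 3′, with the seed match of the target and the seed of the guide (bases 2 to 8) in capitals.
sh2 target: ggaagatggtgGTGGCCAa
sh2 guide: tTGGCCACcaccatcttcc

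The 7 letters GTGGCCA were searched on the sense strand of annotated transcripts (GENCODE vM21, GRCm38). They lay in a 3′ UTR of 2 of the 8 genes, *Dlg4* and *Dlgap2*, both on the plus strand. The *Dlg4* site, chr11:70046931-70046937, was in 1 of its 9 transcripts with an annotated 3′ UTR, and not in the longest one. The *Dlgap2* site, chr8:14846718-14846724, was in 3 of 3. Each is shown within its window of 29 bases, with the seed match in capitals.
*Dlg4* 3′ UTR, chr11:70046920-70046948: gggcagtttctGTGGCCAtccctgagcca
*Dlgap2* 3′ UTR, chr8:14846707-14846735: gaggaccagagGTGGCCAcacgcgcctgg

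Among 15704 genes tested that have an annotated 3′ UTR, 14.6% held the letters in at least 1 of their 3′ UTRs and 13.4% in that of their longest coding transcript. Among 3′ UTRs close in length to that of *Dlgap2* (972 nt) the share was 8.97%. In coding sequence the letters occurred in *Dlg3*, *Dlg4*, *Dlgap2* and *Dlgap3*, against 26.1% of the genes, and in neither region of *Dlg1*, *Dlg2*, *Dlgap1* and *Dlgap4*. The longest stretch that a member shared with the target was 7 nt in *Dlgap1*, 8 nt in *Dlg1* and 9 nt in the other 6, and the median over genes was 8 nt. A match of these letters is a description of the sequence and does not show that the guide acts there.

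Of the MAGUK genes, 0 of 4 were called by edgeR, limma after voom or DESeq2, where edgeR called 6.49% of all genes. Only *Dlg4* had an unadjusted p under 0.05 in edgeR, as did 25.7% of all genes tested. *Dlg4*, the most abundant of them and the gene of PSD95, had 932.0, 852.0 and 810.2 CPM in shCtrl and 797.0, 673.0 and 788.9 CPM in shPla2g4e. The groups did not overlap, but the highest knockdown library was only just below the lowest control. The means were 864.7 ± 61.9 and 753.0 ± 69.4 CPM (SD, n = 3), which put shPla2g4e at 87.1% of shCtrl (log2 fold change −0.20, standard error 0.089, edgeR adjusted p = 0.167). With the replicate block the fold change was the same, and *Dlg4* passed the threshold (edgeR adjusted p = 0.00928). Within the numbered pairs, the log2 ratio of shPla2g4e to shCtrl was −0.23, −0.34 and −0.038, so that the third pair showed little difference. Across the other 13 alternatives, adjusted p ranged from 0.0890 to 0.480 and the log2 fold change from −0.25 to −0.12. By another measure, qRT-PCR, the paper reports significantly less PSD-95 mRNA in cultures that received the shPla2g4e lentivirus.

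*Dlg3*, the gene of SAP102, was the member whose mean was highest relative to the control. It had 206.9, 193.2 and 166.3 CPM in shCtrl and 227.8, 226.1 and 192.8 CPM in shPla2g4e, with 2 knockdown libraries above every control and the third among them. The log2 fold change was 0.19 (standard error 0.095, edgeR adjusted p = 0.218, and 0.0182 with the replicate block). Each of the 3 numbered pairs was higher in shPla2g4e, by 0.14, 0.23 and 0.21 on the log2 scale.

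*Dlg2*, the gene of PSD93, had 766.0, 720.6 and 645.9 CPM in shCtrl and 711.2, 680.8 and 628.5 CPM in shPla2g4e, and the groups overlapped (log2 fold change −0.078, standard error 0.086, edgeR adjusted p = 0.639). *Dlg1*, which encodes SAP97, a scaffold found also at presynaptic sites and in non-neuronal cells, had 185.8, 172.1 and 177.7 CPM in shCtrl and 205.9, 161.3 and 186.8 CPM in shPla2g4e. Its knockdown libraries spread around the controls, with a log2 fold change of 0.049 (standard error 0.090, edgeR adjusted p = 0.803). Without shPla2g4e replicate 1 its sign changed, to −0.036.

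**Figure D1:**
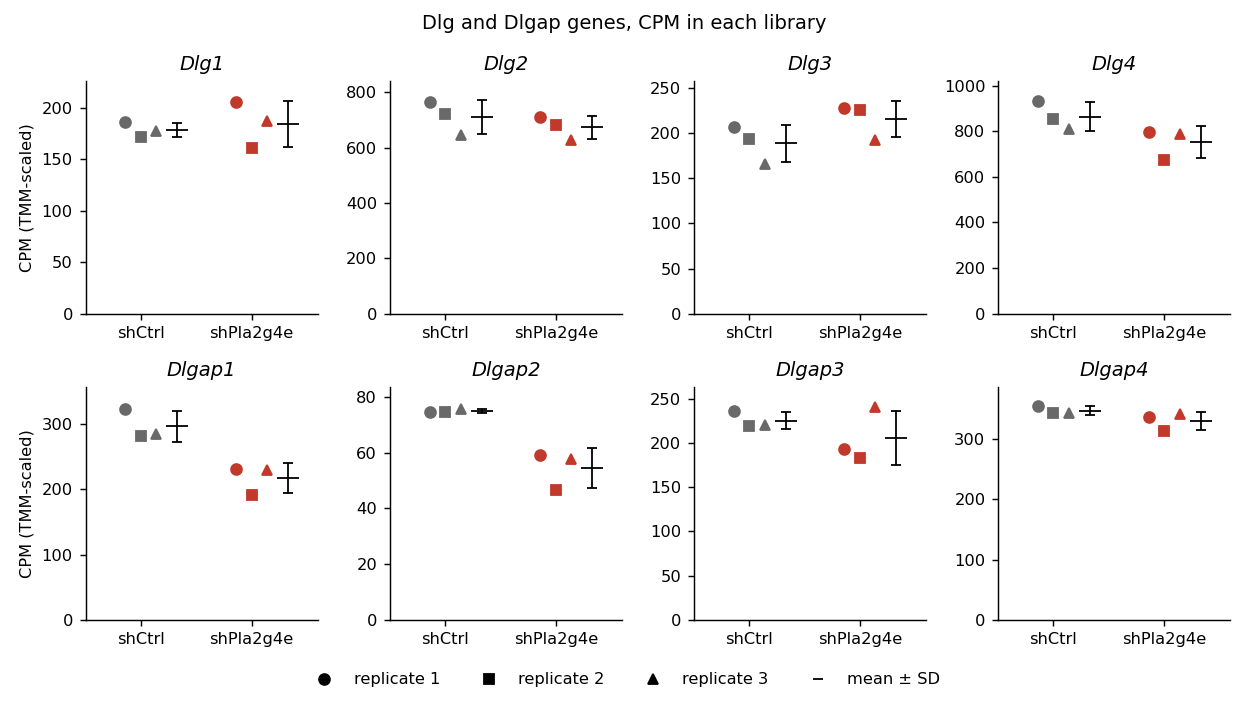
TMM-scaled CPM (vertical axis, from 0) of the 8 genes in the 3 shCtrl and 3 shPla2g4e libraries (horizontal axis). Symbols mark the replicate number and the bar beside them is the mean ± SD. *Dlg4*, *Dlgap1*, *Dlgap2* and *Dlgap4* have all 3 shPla2g4e libraries below all 3 shCtrl libraries, and for *Dlgap4* the gap is small.

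Among the SAPAPs, *Dlgap1* and *Dlgap2* were lower in shPla2g4e, each at less than 75% of the control level, whereas *Dlgap3* and *Dlgap4* did not pass the test. Thus 2 of the 8 genes were called lower, against 4.00% of all genes, and 0 were called higher. The background of well expressed genes is higher: of 6773 genes whose mean log2 CPM was 5 or more, a set chosen after the values were seen, 9.83% were called lower. With the replicate block, 3 of the 8 were called lower (*Dlgap1*, *Dlgap2* and *Dlg4*), against 9.02% of all genes, and 0 higher, against 6.50%. All 8 belong to the well expressed genes, whose share called with the block was not computed, here or for the lists below. The shares over all genes with the block may therefore be too low a background.

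*Dlgap1*, which encodes SAPAP1 (GKAP), had 323.9, 282.1 and 284.6 CPM in shCtrl and 231.9, 191.7 and 229.3 CPM in shPla2g4e. Every knockdown library lay below every control, and the gap between the groups was larger than the range within either of them. The means were 296.8 ± 23.4 and 217.7 ± 22.5 CPM (SD, n = 3), with shPla2g4e at 73.3% of shCtrl (log2 fold change −0.45, standard error 0.091, edgeR adjusted p = 0.00384). All 3 numbered pairs were lower, by −0.48, −0.56 and −0.31 on the log2 scale. The call was lost without shCtrl replicate 1 (edgeR adjusted p = 0.0197), without shCtrl replicate 2 (0.0154) and without shPla2g4e replicate 2 (0.0206). In these fits the log2 fold change was −0.38, −0.48 and −0.36.

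*Dlgap2*, the gene of SAPAP2, was the least abundant of the 8. Its shCtrl libraries were nearly equal, at 74.7, 74.8 and 75.9 CPM, and its shPla2g4e libraries had 59.4, 46.5 and 57.8 CPM, with replicate 2 the lowest. The means were 75.1 ± 0.696 and 54.5 ± 7.04 CPM (SD, n = 3), with shPla2g4e at 72.6% of shCtrl (log2 fold change −0.46, standard error 0.094, edgeR adjusted p = 0.00384). This gene holds the seed match printed above in all of its annotated 3′ UTRs, and the part of that match in its lower level was not tested. *Dlgap1*, with a similar fold change, holds none. The call of *Dlgap2* was lost without shCtrl replicate 1 (edgeR adjusted p = 0.0125), without shCtrl replicate 2 (0.0214), without shCtrl replicate 3 (0.0118) and without shPla2g4e replicate 2 (0.0160), and when libraries were scaled by size alone (0.0108). Its log2 fold change stayed between −0.53 and −0.36 in all alternatives run.

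*Dlgap3*, the gene of SAPAP3, had 236.6, 219.1 and 220.4 CPM in shCtrl and 193.8, 183.3 and 240.6 CPM in shPla2g4e. Of its knockdown libraries, 2 were below and 1 above all controls, and the groups overlapped (log2 fold change −0.13, standard error 0.096, edgeR adjusted p = 0.445). *Dlgap4*, the gene of SAPAP4, had 355.8, 343.7 and 343.6 CPM in shCtrl and 336.8, 313.8 and 342.1 CPM in shPla2g4e. Its groups did not overlap, but were separated by less than 2 CPM (log2 fold change −0.072, standard error 0.076, edgeR adjusted p = 0.622). The value of *Dlgap4* was 0.0027 with scaling by library size alone. In all, 4 of the 8 genes had every knockdown library below every control, against 14.6% of all genes tested, and 0 had every one above, against 15.5% (30.0% of all genes did not overlap in either direction). These shares were not computed for the well expressed genes, to which all 8 belong.

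**Figure D2:**
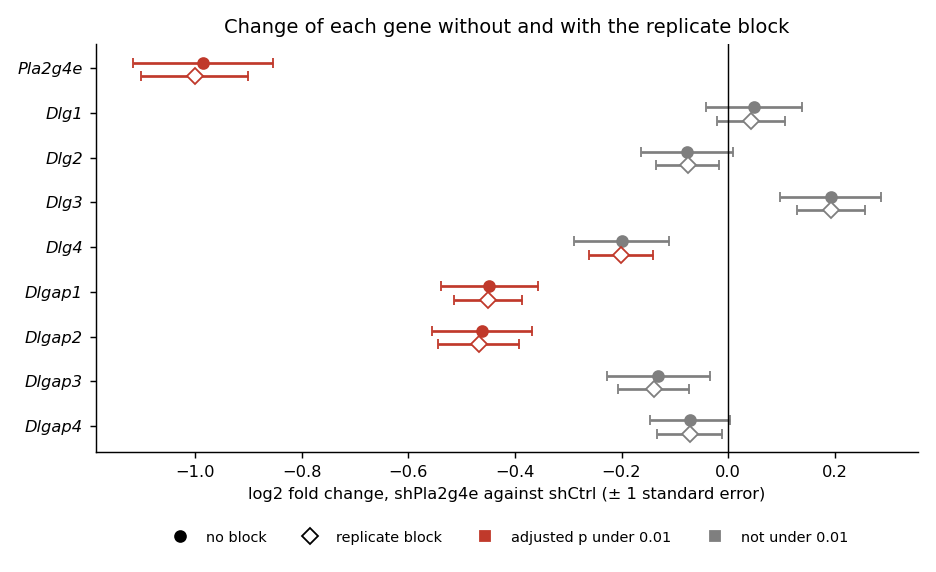
Log2 fold change of *Pla2g4e* and of the 8 genes, shPla2g4e against shCtrl (horizontal axis, bars are ± 1 standard error), without the replicate block (circles) and with it (open diamonds), in red where the edgeR adjusted p is under 0.01. The fold changes of the 2 fits nearly coincide, with *Dlgap1* and *Dlgap2* near −0.45 in both and *Dlg4* at −0.20, called only with the block.

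The reads of these genes were hardly shared with other genes. On GRCm39, the exons of *Dlg1*, *Dlg3*, *Dlg4*, *Dlgap2* and *Dlgap3* overlapped no exon of another gene. Those of *Dlg2* (chromosome 7, 90125880 to 92098455, plus strand) shared 1.26% of their bases with genes on the same strand. *Dlgap1* (chromosome 17, 70276068 to 71128408, plus strand) shared 0.51% with an antisense gene that had 14 to 40 reads per library, and *Dlgap4* (chromosome 2, 156455625 to 156606283, plus strand) shared 0.28% with an antisense gene that had 5 to 13. The counting did not use strand, so that reads in these stretches cannot be assigned to either gene. *Dlg4* (chromosome 11, 69907768 to 69938348, plus strand) and *Dlgap2* (chromosome 8, 14145865 to 14897680, plus strand) had no such stretch.

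To compare levels between the genes, CPM was divided by the exon length of each gene in kb. This length is the union of all annotated exons, so that genes with many alternative exons appear lower than their transcripts are. In shCtrl, *Dlg4* was the highest at 65.3 ± 4.67 CPM per kb (SD, n = 3), above 97.5% of the genes tested. It was followed by *Dlgap3* with 49.8 ± 2.16, *Dlgap4* with 41.1 ± 0.832, *Dlg2* with 39.8 ± 3.39 and *Dlg3* with 32.3 ± 3.53 CPM per kb. *Dlg1* and *Dlgap1* had 16.6 ± 0.643 and 16.6 ± 1.31 CPM per kb, and *Dlgap2* was the lowest with 12.2 ± 0.113, above 80.1% of the genes tested. Neighbours in this order whose libraries overlapped were *Dlgap4* and *Dlg2*, and *Dlg1* and *Dlgap1*. The order of the means in shPla2g4e was the same.

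Summed over the family, the MAGUKs reached 165.9, 153.7 and 142.3 CPM per kb in the shCtrl libraries and 158.1, 142.6 and 145.1 in the shPla2g4e libraries, which is 96.5% of the control mean and within the spread of the libraries. Scaling by library size alone turned the sign of this small difference, from −0.051 to 0.024 on the log2 scale, and without 1 library it ranged from −0.10 (without shCtrl replicate 3) to 0.0058 (without shCtrl replicate 1). The SAPAPs summed to 124.7, 117.1 and 117.7 CPM per kb in shCtrl and to 105.3, 95.9 and 115.9 in shPla2g4e, 88.3% of the control mean, with every knockdown library below every control. This difference of −0.18 on the log2 scale was −0.11 with scaling by library size alone and −0.11 without shPla2g4e replicate 2. No test was made of these sums.

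The make-up of the families was compared as shares of these sums, which were not tested, and as ratios. *Dlg4* made up 42.4%, 41.8% and 43.0% of the MAGUK sum in shCtrl and 38.0%, 35.6% and 41.0% in shPla2g4e, whereas *Dlg3* made up 20.9% ± 0.825 (SD, n = 3) in shCtrl and 24.8% ± 2.20 in shPla2g4e. For both genes the libraries of the groups did not overlap. The log2 ratio of *Dlg3* to *Dlg4* per length, which does not depend on the scaling of a library, was −0.99, −0.96 and −1.10 in shCtrl and −0.63, −0.39 and −0.85 in shPla2g4e. The difference of 0.39 had the smallest p that 3 against 3 libraries allow (exact permutation test, two-sided, p = 0.1, adjusted p = 0.15 over 3 ratios). The ratio of *Dlg1* to *Dlg4* was likewise higher, by 0.24, without overlap (exact permutation test, two-sided, p = 0.1, adjusted p = 0.15), and that of *Dlg2* to *Dlg4* overlapped between groups (difference 0.13, exact permutation test, two-sided, p = 0.4, adjusted p = 0.4). This design cannot reach a p of 0.05 in such a test.

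Among the SAPAPs, *Dlgap1* made up 13.8% ± 0.592 (SD, n = 3) of the family sum in shCtrl and 11.5% ± 0.691 in shPla2g4e, and *Dlgap2* 10.2% ± 0.410 and 8.38% ± 0.685. The share of *Dlgap4* was 34.4% ± 0.516 and 37.2% ± 1.98, and that of *Dlgap3* was 41.6% ± 0.323 and 43.0% ± 2.67. To set the called pair against the other pair, log2 ratios within libraries were computed after the values had been seen. *Dlgap1* and *Dlgap2* were each lower relative to *Dlgap3* (by −0.31 and −0.33) and to *Dlgap4* (by −0.38 and −0.40). Since the genes were chosen for their difference, these values are a description with no test.

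**Figure D3:**
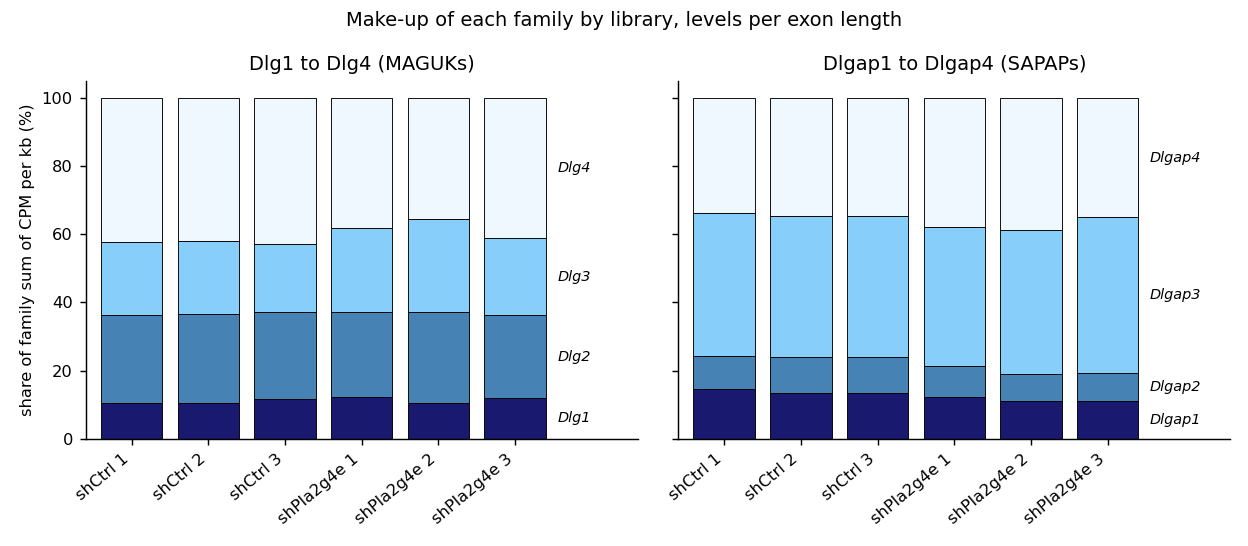
Share of each gene (%) in the summed CPM per kb of its family, as stacked bars for each library, MAGUKs on the left and SAPAPs on the right. In shPla2g4e the *Dlg4* bar is shorter and the *Dlg3* bar longer than in every shCtrl library, and the *Dlgap1* and *Dlgap2* bars are shorter.

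The next question was how the genes of the proteins around these scaffolds behaved. The lists follow the layers of the postsynaptic density and, as for the members, are described by counts and medians, without a test of the list. For the layer beyond the SAPAPs, 2 of 8 genes of Shank, Homer and dynein light chain proteins were called lower and 0 higher, and the median of their log2 fold changes was −0.18 (4.00% of all genes and 9.83% of the well expressed genes were called lower). With the replicate block 4 of the 8 were called lower, against 9.02% of all genes. *Shank3*, a master scaffold that binds SAPAPs by its PDZ domain, fell from 294.5, 272.8 and 275.8 CPM to 161.0, 132.2 and 178.7 CPM (log2 fold change −0.84, standard error 0.099, edgeR adjusted p = 3.95e-05). *Shank2* fell from 417.8, 375.3 and 350.1 CPM to 263.5, 233.7 and 239.6 CPM (−0.63, standard error 0.086, edgeR adjusted p = 1.54e-04), and both were called without any one of the libraries. *Shank1* had 485.3 ± 20.4 and 466.0 ± 48.3 CPM (SD, n = 3) with overlapping groups, and *Homer1*, whose product links Shanks to metabotropic glutamate receptors, had 177.4 ± 13.4 and 178.7 ± 13.6 CPM. *Shank1* and *Homer1* were named after their values were seen.

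Of 24 genes of membrane partners of PSD95, 3 were called lower and 1 higher, with a median of −0.13, against 4.00% and 2.48% of all genes and 9.83% lower among the well expressed genes. *Grin2a*, an NMDA receptor subunit that is known to increase with maturation, fell from 97.5, 98.1 and 89.2 CPM to 74.7, 62.6 and 65.9 CPM (log2 fold change −0.49, standard error 0.087, edgeR adjusted p = 0.00142). *Erbb4*, a neuregulin receptor found mostly in interneurons, fell by 0.43 on the log2 scale (edgeR adjusted p = 0.00146). *Lrrtm2*, an adhesion molecule that binds neurexins, rose from 90.1, 93.8 and 85.6 CPM to 129.4, 121.3 and 112.3 CPM (log2 fold change 0.43, standard error 0.082, edgeR adjusted p = 0.00222). The third lower gene was *Adgrb1*, an adhesion receptor (−0.34, edgeR adjusted p = 0.00921), named after its values were seen. So were *Grin2b*, the NMDA receptor subunit typical of young neurons, and *Cacng8*, an AMPA receptor auxiliary subunit, which passed with the replicate block and not in the main test. *Grin2b* had 933.5, 866.2 and 659.8 CPM in shCtrl and 655.9, 630.4 and 552.4 CPM in shPla2g4e (log2 fold change −0.42, edgeR adjusted p = 0.0210, with the block 1.35e-07). *Cacng8* had 38.4 ± 3.32 and 48.1 ± 2.99 CPM (SD, n = 3), with every knockdown library above every control (log2 fold change 0.32, edgeR adjusted p = 0.0301, with the block 0.00189). With the block, 7 of the 24 were called lower and 2 higher, against 9.02% and 6.50% of all genes.

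Of 13 genes of cytosolic partners of PSD95, 3 were called lower and 0 higher, with a median of −0.16, against 4.00% of all genes and 9.83% of the well expressed genes called lower. *Akap5*, which anchors kinases and calcineurin at the synapse, fell from 77.0, 72.3 and 69.9 CPM to 47.5, 36.5 and 51.2 CPM (log2 fold change −0.70, standard error 0.11, edgeR adjusted p = 4.41e-04). *Lrrc7* (densin-180), a scaffold that binds CaMKII, fell by 0.47 on the log2 scale (edgeR adjusted p = 0.00119). *Cnksr2*, a scaffold of Ras signalling, fell by 0.39 (edgeR adjusted p = 0.00944). With the block, 4 of the 13 were called lower and 0 higher, against 9.02% and 6.50% of all genes. The added gene was *Map1a* (log2 fold change −0.30, edgeR adjusted p = 0.0457, with the block 4.25e-05), named after its values were seen.

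PSD95 is held at the membrane by palmitoylation. Of 10 genes of palmitoyl transferases and of the ABHD17 enzymes that remove palmitate, 1 was called lower and 0 higher, with a median of −0.18. A share of 1 in 10 is close to the 9.83% called lower among the well expressed genes, and 4.00% of all genes were called lower. The gene was *Zdhhc5*, a palmitoyl transferase of dendrites, with 75.5, 78.3 and 73.8 CPM in shCtrl and 56.3, 53.6 and 57.7 CPM in shPla2g4e, 2 narrow groups far apart (log2 fold change −0.44, standard error 0.079, edgeR adjusted p = 0.00140). *Zdhhc2*, whose product palmitoylates PSD95 in dendrites, had 83.7, 91.2 and 83.0 CPM in shCtrl and 75.3, 64.1 and 69.8 CPM in shPla2g4e and passed with the replicate block but not in the main test (log2 fold change −0.30, edgeR adjusted p = 0.0280, with the block 0.00103). The same held for *Abhd17c*, the gene of a depalmitoylating enzyme, with 51.0 ± 1.81 and 41.5 ± 3.80 CPM (SD, n = 3, log2 fold change −0.30, edgeR adjusted p = 0.0413, with the block 0.00432), so that 3 of the 10 were called lower with the block, against 9.02% of all genes. Both were named after their values were seen.

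Of these 10 calls among partner and palmitoylation genes, 4 were kept without any one of the libraries (*Shank2*, *Shank3*, *Akap5* and *Erbb4*). *Grin2a*, *Lrrc7* and *Zdhhc5* were lost without shCtrl replicate 2 (edgeR adjusted p = 0.0142, 0.0154 and 0.0145), and *Lrrtm2* without shCtrl replicate 2 or shPla2g4e replicate 1 (up to 0.0196). *Adgrb1* and *Cnksr2* were called in only 1 of the 6 fits, that without shCtrl replicate 3, with edgeR adjusted p up to 0.0655 and 0.0473 in the others. *Adgrb1* was also lost with upper-quartile scaling, with scaling by library size alone and with at least 10 reads in every library, and *Cnksr2* with these and with DESeq2's size factors in edgeR. With scaling by library size alone the medians of the lists moved upward together with that of all genes, which went from 0.029 to 0.10. The moves were from −0.13 to −0.060 for the membrane partners, from −0.16 to −0.084 for the cytosolic partners, from −0.18 to −0.11 for the partners of SAPAPs and from −0.18 to −0.11 for the palmitoylation genes. The median over the well expressed genes was −0.047 with TMM.

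In 3 further lists no gene was called in the main edgeR test, and with scaling by library size alone 1 of the other MAGUKs was called higher. With the block, *Mpp3* was called higher (log2 fold change 0.37, edgeR adjusted p = 0.0136 without the block and 3.46e-04 with it), and *Tjp1* (−0.26, 0.0362 and 0.00194) and *Btrc* (−0.34, 0.0101 and 1.21e-04) lower, all 3 named after their values were seen. Of 15 other MAGUKs (*Dlg5*, *Cask*, and the Mpp, Magi and Tjp genes), 8 had lower and 7 higher values, with a median of −0.037 that was 0.037 when libraries were scaled by size alone. Of these, 6 had an unadjusted p under 0.05 in edgeR, against 25.7% of all genes tested and 40.7% of the well expressed genes, limma after voom called 0, and DESeq2 called 1. Of 8 genes for splicing, translation and turnover of PSD95 and SAPAPs (such as *Ptbp2*, which represses an exon of *Dlg4* needed for the protein), 6 had lower and 2 higher values. Their median was −0.18, and −0.11 when libraries were scaled by size alone. Of these 8 genes, 6 had an unadjusted p under 0.05, and limma after voom and DESeq2 each called 1. For the inhibitory synapse, where gephyrin takes the place of the MAGUKs, 2 of 5 scaffold genes had lower and 3 higher values, with a median of 0.065 and 0 with an unadjusted p under 0.05 in edgeR or a call by limma after voom or DESeq2. This median was 0.14 with scaling by library size alone and ranged from −0.0071 to 0.15 without 1 library. *Ptbp2* itself had 164.8 ± 2.53 and 161.2 ± 6.59 CPM (SD, n = 3) and *Gphn*, the gene of gephyrin, 89.6 ± 8.76 and 79.1 ± 6.30 CPM. Both were named after their values were seen.

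**Figure D4:**
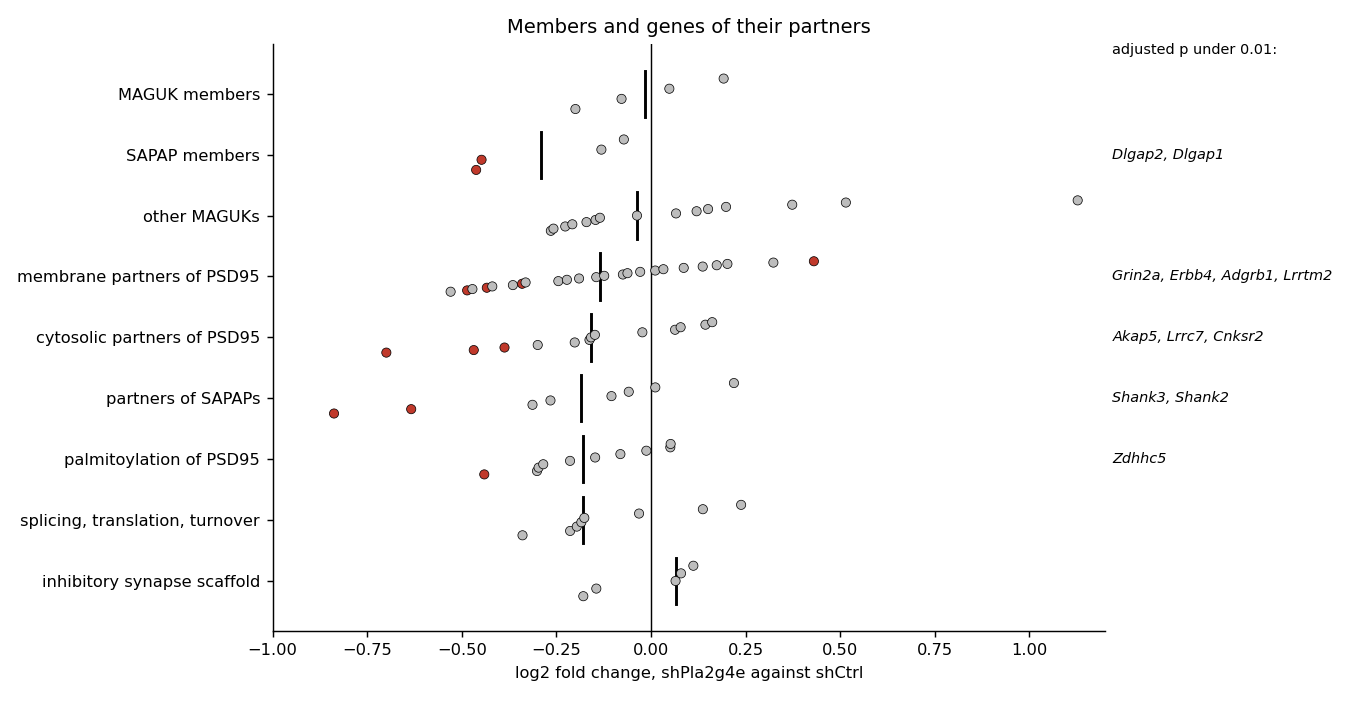
Log2 fold change, shPla2g4e against shCtrl (horizontal axis), of every gene tested in the member and partner lists (rows). Each point is a gene, red where the edgeR adjusted p is under 0.01 with the names at the right, and the vertical bars are the list medians. The lowest points are *Shank3* at −0.84, *Akap5* at −0.70 and *Shank2* at −0.63, and *Lrrtm2* is the only red point above 0.

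Other cell markers moved with the groups, and because these are bulk samples, fewer cells of a type and less RNA per cell cannot be told apart. Of 10 pan-neuronal genes, 3 were called lower (*Tubb3*, *Map2* and *Rbfox3*) and 2 higher (*Nefl* and *Nefm*), with a summed level of 5349 to 5714 CPM in shCtrl and 4703 to 5146 CPM in shPla2g4e. Of 7 glutamatergic genes, 2 were called lower (*Slc17a7* and *Neurod6*) and 1 higher (*Slc17a6*), with a median log2 fold change of 0.019. *Slc17a7* went from 744.8 ± 97.0 to 299.6 ± 11.2 CPM (SD, n = 3, log2 fold change −1.31). In CPM, but not as a fold change, its fall was about as large as that of the summed level. The sum of the 7 genes was 2152 to 2341 CPM in shCtrl and 1606 to 1891 CPM in shPla2g4e. *Slc32a1*, the vesicular transporter of GABAergic neurons, was called lower, with 60.8 ± 2.94 and 39.1 ± 0.399 CPM (SD, n = 3). Of 8 astrocyte genes, 3 were called lower (*Aqp4*, *Slc1a2* and *Gja1*), with overlapping sums of 2826 to 3630 and 1899 to 3082 CPM that were lower in shPla2g4e in each numbered pair. With the replicate block 6 were called lower and 1 higher, where 9.02% and 6.50% of all genes were, and in the main test 4.00% and 2.48%. Of 5 proliferation genes, 1 was called lower (*Top2a*), with sums of 23.9 to 45.1 and 11.9 to 22.9 CPM, and of the oligodendrocyte (9), microglial (6) and vascular (5) genes tested 0 were called. With the block, 1 oligodendrocyte gene was called lower and 1 vascular gene higher. It called 2 of 5 proliferation genes and 3 of 5 GABAergic genes lower, where the main test called 1 and 2. Of the glutamatergic genes it called 3 lower and 2 higher, and of the pan-neuronal genes 3 lower and 3 higher. *Tubb3*, *Nefm*, *Slc17a7* and *Slc32a1* stayed under an adjusted p of 0.01 in all alternatives run. The other named markers did not, with a largest edgeR, limma or DESeq2 adjusted p of 0.0271 for *Rbfox3*, 0.0157 for *Map2*, 0.0197 for *Nefl*, 0.0425 for *Slc17a6*, 0.0257 for *Neurod6*, 0.0124 for *Aqp4*, 0.0531 for *Slc1a2*, 0.0161 for *Gja1* and 0.0552 for *Top2a*. The part of these shifts in the values of *Dlgap1*, *Dlgap2* and their partners was not tested.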

How the data were processed

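RNA was measured in 6 libraries (3 shCtrl, 3 shPla2g4e) with a stranded poly(A) kit. The authors aligned reads with STAR 2.7.0d, counted them on exons with featureCounts 1.6.0 (GRCm39 coordinates per the file headers, whereas the study's methods name mm10) and deposited raw counts. The header's command line sets no strand option, and multi-mapping reads were left out. Groups were taken from the labels.

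Genes reaching 6 reads in 1 or more libraries were tested with edgeR 4.0.16 (TMM, quasi-likelihood test, Benjamini-Hochberg over all genes, threshold 0.01). The study's own test, limma 3.58.1 after voom, and DESeq2 1.42.0, other scalings and filters, a replicate block and leaving out each library were alternatives. The fits were also run on simulated counts with known changes, and the outcome is not given here. Symbols and 3′ UTRs came from GENCODE vM21 (GRCm38), which named 52081 of 55357 identifiers. The member with the fewest reads, *Dlgap2*, had 1005 to 1710 per library. Deviations from the mean of the group, over 10884 genes, had correlations of 0.39, 0.19 and 0.46 for same-numbered libraries and of −0.39 to 0.11 for others, so that the numbers, from the labels' titles, were treated as pairs. The labels do not say that libraries of the same number share a culture or day. The pairing was read from these same data, which limits the p-values with the block. No pair of libraries agreed within sampling noise.

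The members and gene lists were chosen with earlier results of these data known. Named were all 8 members, *Pla2g4e*, the 3 genes with the smallest p among those called in each partner list, the 3 genes most like *Dlg4* and *Dlgap2*, and well expressed markers. Exceptions are marked. Some genes of the lists are not reported here.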

Additional observations from a re-analysis of the deposited data

How the results depend on the processing

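Of the 8 genes, *Dlgap1* and *Dlgap2* were called lower in the main test. With scaling by library size alone 1 was called lower, and without 1 library 0 to 2. The replicate block added *Dlg4* (3 lower, log2 fold change −0.20) and changed no call of the other 7. With the block 3395 genes of all were called (1973 lower, 1422 higher), without a filter 2349 (1360 and 989), at a threshold of 0.05 2813 (1599 and 1214), and without 1 library 695 to 1613 (449 to 932 lower, 246 to 681 higher). Over the 7 lists of partner and related genes together, those of other MAGUKs, turnover and the inhibitory scaffold included, 9 were called lower and 1 higher. With DESeq2 these were 15 and 2, without a filter 15 and 2, with the block 20 and 3, at 0.05 19 and 3, with upper-quartile scaling or at least 10 reads in every library 2 higher, with scaling by library size alone 3 higher, and without 1 library 4 to 12 lower and 0 to 2 higher. The sign changed for *Dlg1* without shPla2g4e replicate 1 (−0.036, and up to 0.14 without another library) and for *Dlgap4* with library size alone (0.0027). The cause was not tested. DESeq2 gave no adjusted p for 5514 genes. With 3 libraries a group, log2 fold changes near 0.2, as of *Dlg3* and *Dlg4*, were close to 2 standard errors without the block and over 3 with it, and the call of *Dlg4* depended on the block.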

Other observations

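Over the 6 libraries, the genes whose log2 CPM followed *Dlg4* most closely, among 10883 genes whose mean log2 CPM was 3 or more, were *Ints9* (Pearson r = 0.995), *Kcnip2* (0.992) and *Kif1a* (0.991). *Kif1a*, which encodes a kinesin of synaptic vesicle precursors, had 1755 CPM in shCtrl and 1572 CPM in shPla2g4e (log2 fold change −0.16, edgeR adjusted p = 0.239). For *Dlgap2* they were *Map3k5* (0.999), *Rimbp2* (0.998) and *Kif5a* (0.997). *Kif5a*, a neuronal kinesin heavy chain, had 1263 and 887.5 CPM (−0.51, edgeR adjusted p = 0.00164), and *Map3k5* 62.2 and 31.4 CPM (−0.99, edgeR adjusted p = 1.91e-04). These r values cover both groups, are the highest of many, and are given as a description.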
